A study of Homo sapiens with 46 samples.

Results

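Ribosome footprints of HEK293 Flp-In T-REx cells given siRNA against ABCE1 were compared with footprints of cells given control siRNA. HEK293 is a human embryonic kidney line, and the Flp-In T-REx derivative carries a site for inserting tetracycline-inducible genes. Of the 46 libraries of the series, the 7 that the labels assign to these conditions and to footprints were taken. They are 2 monosome libraries of ABCE1 knockdown cells with 2 of control cells, and 1 disome library of ABCE1 knockdown cells with 2 of control cells. Per the labels' protocols, the siRNA was transfected at 75 nM with 72 h of incubation, and again at 30 nM with 24 h of incubation, in both conditions. For neither condition do the labels name another allele or agent. The remaining footprint libraries of the knockdown arm came from cells given siRNA against ASCC3, against 4EHP or against both. The series has no RNA-seq library of the ABCE1 knockdown. A change in mRNA and a change in ribosomes per mRNA therefore cannot be told apart in what follows. In these bulk libraries, fewer cells of a kind and less RNA per cell cannot be told apart either.

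ABCE1 is an ATPase that splits the ribosome into its subunits after termination at the stop codon, a step called recycling, so that the subunits can begin translation again. A monosome footprint is the mRNA fragment that a single ribosome shields from RNase I. A disome footprint is the longer fragment shielded by a ribosome pair that touches, as when a ribosome runs into another that has stopped in front of it. In cells that lack recycling factors, ribosomes are known to linger at stop codons and to enter the region behind them.

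The files gave a count for each Ensembl transcript ID with its coding length and did not pair the IDs with gene names, so the transcripts are given here by ID and coding length. For the same reason the ABCE1 transcripts were not identified, the loss of ABCE1 itself was not checked, and markers of the cell line were not read. ABCE1 knockdown names the siRNA given. Isoforms carried nearly the same counts, and 97742 transcripts with any count were therefore reduced to 54435 features, each represented by its transcript with the most counts. Several features can still belong to a single gene. Over these features the monosome libraries held 7356918 and 5994548 counts in ABCE1 knockdown cells, against 6698881 and 6073765 in control cells. The disome libraries held 1722526 counts in ABCE1 knockdown cells, against 1477523 and 776771 in control cells. Levels are counts scaled to library size (CPM, the unit edgeR uses) after normalization for library composition. A transcript was called changed where the adjusted p of edgeR's quasi-likelihood test was below 0.05.

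Monosome footprints differed at few transcripts after ABCE1 siRNA. Of 28419 transcripts tested, 21 changed (0.0739%), of which 4 rose (0.0141%) and 17 fell (0.0598%). The falls ranged from -1.65 to -0.42 in log2 fold change with a median of -0.87, against a median of 0.0016 over the transcripts tested, and 5 of them were larger than 2-fold. At an unadjusted p under 0.05 there were 2012 transcripts. For each of the 21, the ABCE1 libraries and the control libraries did not overlap. The 21 were called on these same libraries, so this adds no separate evidence, and the share over the transcripts tested was not computed. About as many calls were lost as kept without some single libraries: 11 of the 21 (10 of the 17 falls) were kept without the second control library and 12 (11 falls) without the first ABCE1 library, and 14 (12 falls) were kept without either of the others.

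**Figure D1:**
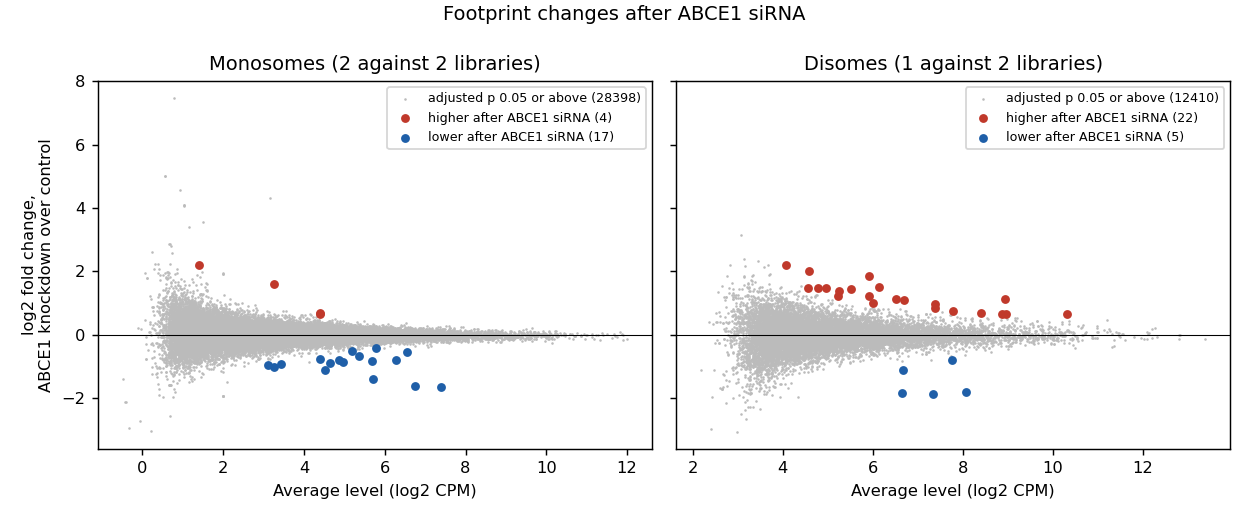
Log2 fold change of ABCE1 knockdown over control (vertical axis) against the average level in log2 CPM (horizontal axis) in monosomes (left) and disomes (right), a point per transcript. Red points rose and blue points fell: 4 rose and 17 fell in monosomes, whereas 22 rose and 5 fell in disomes.

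The narrow spread of the monosome comparison is visible in the plot of fold changes against level. Among the 10443 transcripts at an average log2 CPM of 4 or more, the log2 fold change had its 1st percentile at -0.35 and its 99th at 0.33, and 99.7% lay within 0.5 of 0. The median standard error (SE) of a log2 fold change there was 0.11. Beyond 0.5 lay 29 transcripts, and beyond 1 lay 4. Distances between the conditions were near those within them for the first ABCE1 library and larger for the second. Over the 3140 transcripts at an average log2 CPM of 6 or more, the SD of the log2 difference was 0.123 between the ABCE1 libraries and 0.104 between the control libraries. Against the first and second control library it was 0.113 and 0.124 for the first ABCE1 library, and 0.155 and 0.151 for the second. In the same fit, and with the same control libraries, 5.68% of transcripts were called in the ASCC3 knockdown, 0.809% in the 4EHP knockdown and 13.7% in the combined knockdown.

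The largest fall was that of ENST00000296577.9, a transcript with 600 coding codons. Its monosome level was 67.0 and 64.2 CPM in ABCE1 knockdown cells, against 209 and 204 CPM in control cells, and 185 to 212 CPM in the 6 libraries of the other knockdowns. Both ABCE1 libraries lay far below the other 8, which lay close together. The mean was 65.6 ± 2.01 CPM in ABCE1 knockdown cells and 206 ± 3.28 CPM in control cells (SD, n = 2 each), a log2 fold change of -1.65 (SE 0.079, edgeR's adjusted p = 8.47e-25). Disomes on this transcript were low in the same way, with 87.9 CPM in the ABCE1 library against 297 and 324 CPM in the control libraries (log2 fold change -1.81, SE 0.205, edgeR's adjusted p = 1.11e-14). The disome fall did not differ detectably from the monosome fall (difference -0.14, SE 0.191, edgeR's adjusted p = 0.955).

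ENST00000507193.5, with 422 codons, showed the fall of next size. Its monosome level was 45.6 and 41.9 CPM in ABCE1 knockdown cells, against 138 and 132 CPM in control cells (log2 fold change -1.62, SE 0.087, edgeR's adjusted p = 2.84e-22). Its disome level was 49.5 CPM in the ABCE1 library, against 174 and 189 CPM in the control libraries (log2 fold change -1.86, SE 0.233, edgeR's adjusted p = 8.97e-12). These transcripts stand on consecutive lines of the deposited files and may hold the same reads. ENST00000502586.5, with 210 codons, precedes them and is named after its values were seen. It had 25.2 and 23.8 CPM in monosomes of ABCE1 knockdown cells, against 65.8 and 65.0 CPM in control cells (log2 fold change -1.41, SE 0.114, edgeR's adjusted p = 7.13e-14).

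The edges of this fall along the files were sharp. Without joining of isoforms, 4 consecutive transcripts of 148 to 600 codons had log2 ratios of summed monosome counts, ABCE1 over control, between -1.63 and -1.39. The other 12 transcripts with at least 100 counts within 10 lines on either side had ratios between -0.47 and 0.08. Thus the run of 4 stood apart from its neighbours in the files. Which gene these transcripts belong to was not analysed here, and whether they are transcripts of the siRNA target itself was not tested. The values of these transcripts, which give 3 of the 5 disome falls described further on, are to be read with that limit.

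The 17 falls lay in 11 neighbourhoods of the files, where features at most 40 lines apart were put in the same neighbourhood. The neighbourhood above held 3 of them, another pair of neighbourhoods held 3 each, and 8 held 1 each. The second group of 3 had 161 to 332 codons and log2 fold changes from -0.90 to -0.82, and the third had 62 to 199 codons and log2 fold changes from -0.95 to -0.87. In the third group a like fall was measured without ABCE1 siRNA. Its log2 fold changes over control were -0.77, -1.03 and -0.75 in the ASCC3 knockdown and -0.54, -1.05 and -0.33 in the combined knockdown. In the 4EHP knockdown they were -0.11, 0.02 and -0.28. Members of such a group moved by nearly the same amount, so the number of separate loci that fell may be smaller than 17. Among the 8 single ones, ENST00000407418.8 had the smallest adjusted p and is named because it was also called in disomes. This transcript of 413 codons had 43.7 and 48.6 CPM in monosomes of ABCE1 knockdown cells, against 75.9 and 86.5 CPM in control cells (log2 fold change -0.82, SE 0.097, edgeR's adjusted p = 6.6e-08).

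**Figure D2:**
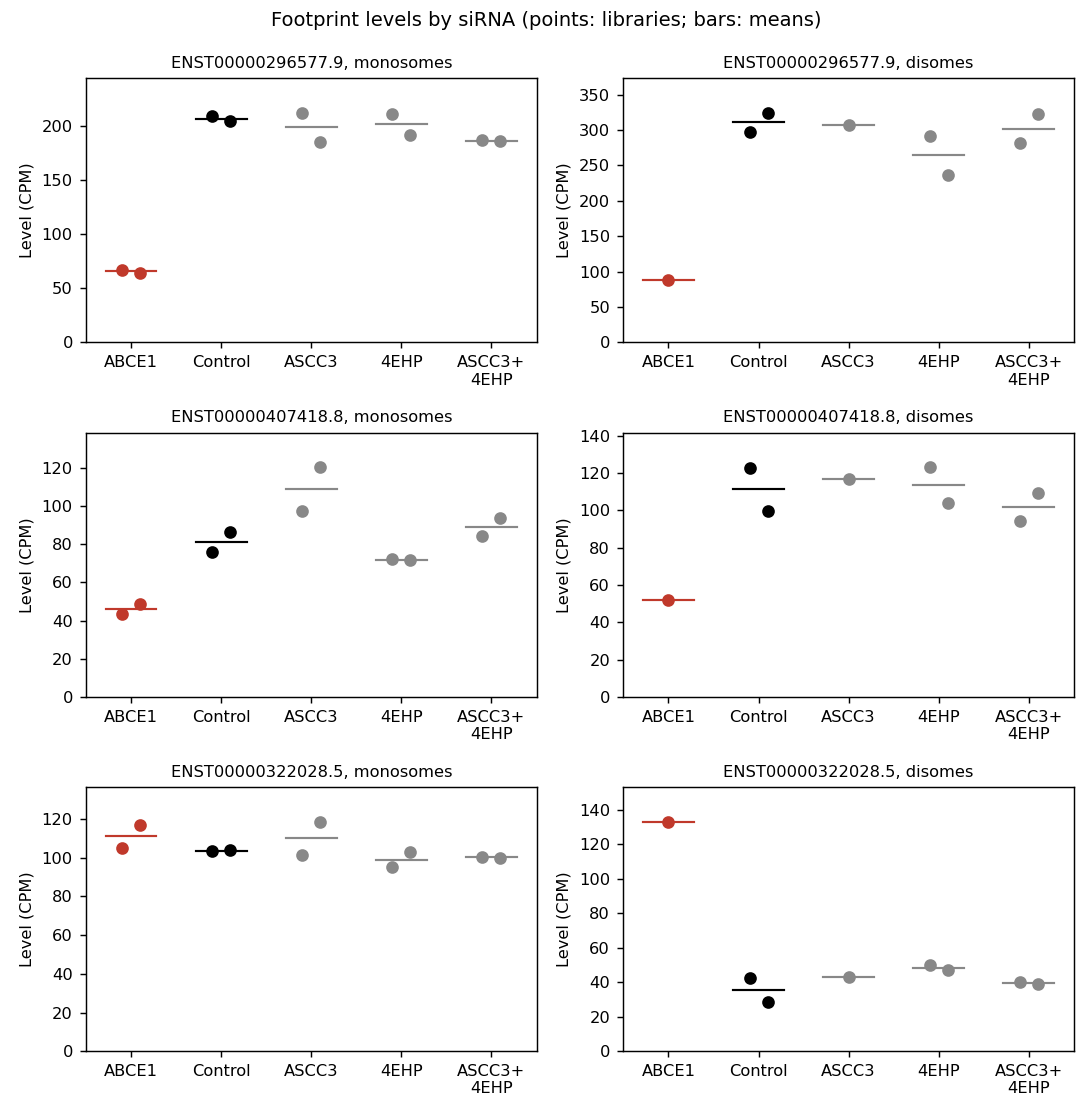
CPM in each library (points) and group mean (bars) of 3 transcripts in monosomes (left column) and disomes (right column), by siRNA target, with each vertical axis starting at 0. ENST00000296577.9 and ENST00000407418.8 were lower in the ABCE1 libraries in both kinds of footprint, whereas ENST00000322028.5 was higher in the ABCE1 disome library (133 CPM, against 42.5 and 28.7 CPM in control) and showed no call in monosomes.

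The falls were compared with the other monosome libraries and with the disomes. In 14 of the 17, both ABCE1 libraries were below each of the other 8 monosome libraries of the arm. The 17 were called for low values in these ABCE1 libraries, and the like share over the transcripts tested was not computed. Set against the mean of the other 3 knockdowns in place of control, 15 of the 17 were called lower, where 3.5% of the transcripts tested were called lower. That comparison uses the same ABCE1 libraries. In disomes, 16 of the 17 could be tested, 15 had a negative log2 fold change and 4 were called, with a median of -0.97 and a range from -1.86 to 0.13. The monosome and disome comparisons share no library, but the labels do not say whether they share cultures. None of the 17 was called in the test of disomes relative to monosomes, where 0.0898% of transcripts were called.

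Of the 4 transcripts that rose in monosomes, ENST00000250383.10 had the smallest adjusted p. They are named in full because they are few. This transcript of 281 codons had 13.5 and 13.4 CPM in ABCE1 knockdown cells, against 4.39 and 4.50 CPM in control cells, from 99 and 80 counts against 29 and 27 (log2 fold change 1.59, SE 0.209, edgeR's adjusted p = 9.37e-07). Its level was also high in the combined ASCC3 and 4EHP knockdown, with 13.2 and 12.2 CPM, so a like level was measured without ABCE1 siRNA. In disomes it had 42 counts in the ABCE1 library, against 11 and 1 in the control libraries (log2 fold change 2.19, SE 0.483, edgeR's adjusted p = 0.00468). The disome call rested on the control library with 1 count, since the log2 fold change was 1.70 and edgeR's adjusted p was 0.407 without it.

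The other 3 rises were less certain. ENST00000586370.6, with 175 codons, had 25.6 and 24.1 CPM in ABCE1 knockdown cells, against 18.5 and 12.5 CPM in control cells (log2 fold change 0.67, SE 0.148, edgeR's adjusted p = 0.0414). ENST00000221476.4, with 382 codons, had 23.2 and 24.8 CPM in ABCE1 knockdown cells, against 14.8 and 15.8 CPM in control cells (log2 fold change 0.64, SE 0.143, edgeR's adjusted p = 0.0472). Both were as high in a library of another knockdown, where the 2 ASCC3 libraries had 27.2 and 21.2 CPM for ENST00000586370.6 and 25.2 and 28.3 CPM for ENST00000221476.4. ENST00000295133.9, with 876 codons, had 55 and 15 counts in ABCE1 knockdown cells, against 5 and 9 in control cells (log2 fold change 2.19, SE 0.455, edgeR's adjusted p = 0.0413). Each of these 3 calls was lost on leaving out some single libraries. The first lost its call without either ABCE1 library or without the second control library, the next without any of the 4 libraries, and ENST00000295133.9 without the first ABCE1 library or without either control library.

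Disomes showed more rises than falls. Of 12437 transcripts tested with the single ABCE1 library, 27 changed (0.217%), of which 22 rose (0.177%) and 5 fell (0.0402%). This test assumes that the ABCE1 library varies as the replicated groups of the arm do. The rises ranged from 0.64 to 2.19 in log2 fold change with a median of 1.18, against a median of -0.01 over the transcripts tested, and 706 transcripts had an unadjusted p under 0.05. Disome libraries were farther apart than monosome libraries, with an SD of the log2 difference over 2942 transcripts (average log2 CPM of 6 or more) of 0.247 and 0.313 between the ABCE1 library and each control library, and of 0.274 between the control libraries.

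Most transcripts whose disomes rose in edgeR's test had short coding sequences. Of the 22, 15 had at most 150 codons (64 to 131), 7 had 174 to 361 and none had more than 400. The rises had a median of 129 codons, against 319 over the transcripts tested, of which 20.7% had at most 150. At an average log2 CPM of 6 or more, the 12 rises each had at most 150 codons, where 521 of the 2942 transcripts tested (17.7%) were that short. The 5 falls had 210 to 600 codons.

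**Figure D3:**
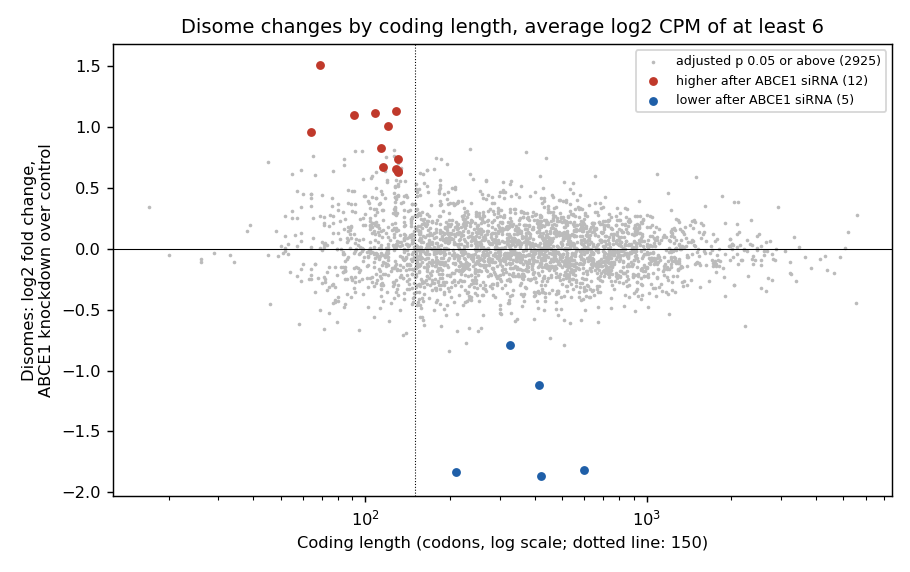
Log2 fold change of disomes, ABCE1 knockdown over control (vertical axis), against coding length in codons (horizontal axis, log scale) for the 2942 transcripts at an average log2 CPM of 6 or more. The 12 that rose (red) lie left of the dotted line at 150 codons, and the 5 that fell (blue) lie right of it.

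Short transcripts as a class moved little. The median log2 difference of the 521 short transcripts was 0.025 between the ABCE1 library and the first control library and 0.067 between it and the second, against -0.019 between the second control library and the first. Of the disome counts, 21.6% (95% Wilson interval 21.5% to 21.6%, counting error alone) lay on transcripts of at most 150 codons in the ABCE1 library, against 21.0% ± 0.11 in control (SD, n = 2). In monosomes that share was 22.0% ± 0.30 in ABCE1 knockdown cells and 22.1% ± 0.06 in control cells (SD, n = 2 each), and the libraries overlapped. For a value of 2 against 2 libraries an exact two-sided permutation test cannot give a p below 0.333.

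The 15 short rises lay in 14 neighbourhoods of the files. Only transcripts at most 40 lines apart share a neighbourhood, so transcripts of like sequence farther apart count separately. Whether distant transcripts hold the same reads was not tested, and the number of separate sequences may be smaller than 14. Their disome levels were 49.5 to 1839 CPM in the ABCE1 library, against 8.21 to 1214 CPM in the control libraries, with log2 fold changes from 0.64 to 2.02. The 7 longer ones lay in 6 neighbourhoods at 26.0 to 92.9 CPM in the ABCE1 library, against 1.37 to 41.8 CPM in the control libraries, with log2 fold changes from 1.22 to 2.19. The short rises thus reached much higher levels than the longer ones. The 22 together lay in 19 neighbourhoods, since a short rise, ENST00000587334.1, shared a neighbourhood with a longer rise of 253 codons. Whether these belong to the same gene was not tested. In 21 of the 22 the ABCE1 library was above each of the other 7 disome libraries of the arm. The 22 were called for a high value in this library, and the like share over the transcripts tested was not computed. Set against the mean of the other 3 knockdowns, 18 of the 22 were called higher, where 2.27% of the transcripts tested were called higher, again with the same ABCE1 library.

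Monosomes rose less than disomes, or fell, on each of these 22 transcripts. The difference was called for 13 of them, where 0.0898% of the transcripts tested were called, with the same ABCE1 disome library. For the rest a matching monosome change was not excluded. The 22 had monosome log2 fold changes from -0.16 to 1.59 with a median of 0.11, and 16 were positive. In monosomes 1 was called, ENST00000250383.10, whose difference was not called (0.63, SE 0.544). Without it the monosome values reached 0.42 at most. Over 8124 transcripts at an average log2 CPM of 4 or more in both kinds of footprint, the disome and monosome log2 fold changes had a Pearson correlation of 0.20 and a Spearman correlation of 0.19, given as a description across transcripts, which are not independent. The plot of disome against monosome changes shows the falls along the diagonal and most disome rises near 0 on the monosome axis.

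**Figure D4:**
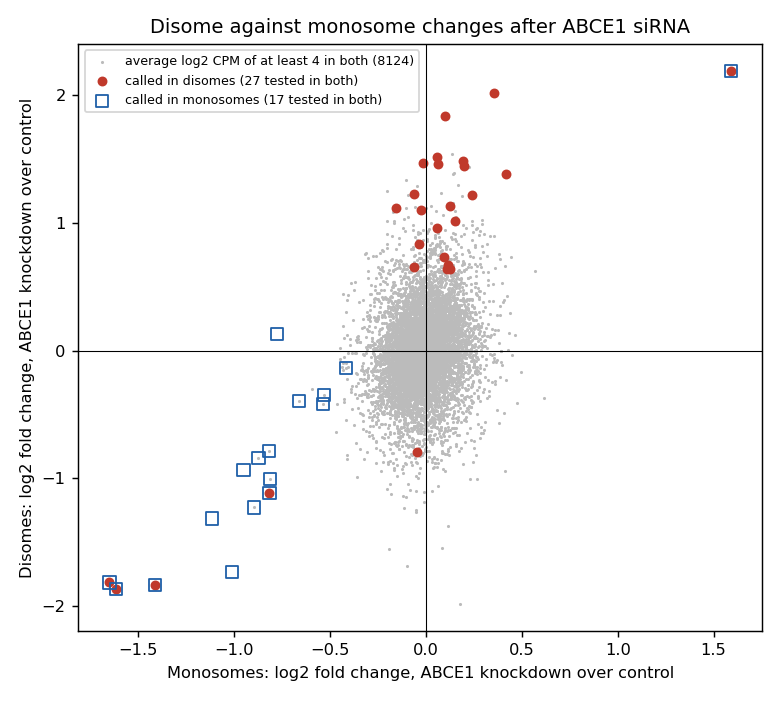
Log2 fold change of ABCE1 knockdown over control in disomes (vertical axis) against monosomes (horizontal axis), a point per transcript. Filled red circles were called in disomes and open blue squares in monosomes, where 16 of the 17 monosome falls could be tested in disomes and 15 of these have negative values on both axes.

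Whether disomes moved beyond monosomes was tested directly in a model over 18 libraries. Of 25619 transcripts, 23 changed in disomes relative to monosomes (0.0898%), of which 22 were higher (0.0859%) and 1 was lower (0.0039%). Of the 22 that were higher, 14 had at most 150 codons, where 32.8% of the transcripts tested were that short. Their monosome log2 fold changes had a median of -0.04 and their disome ones a median of 1.03, and 13 of them were called in disomes as well. This count depended on single libraries, falling to between 10 and 14 without a monosome library or without the second control disome library, and reaching 53 without the first control disome library.

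ENST00000322028.5, with 68 codons, had the largest value. Its disome level was 133 CPM in the ABCE1 library, against 42.5 and 28.7 CPM in control and 38.9 to 50.1 CPM in the 5 disome libraries of the other knockdowns. Its monosome level was 105 and 117 CPM in ABCE1 knockdown cells, against 103 and 104 CPM in control cells. The ABCE1 disome library stood alone, while the monosome libraries were near each other. Disomes rose by 1.74 more than monosomes on the log2 scale (SE 0.224, edgeR's adjusted p = 2.13e-08), and the call held in each alternative run.

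ENST00000587334.1, with 106 codons, came next. Its disome level was 49.5 CPM in the ABCE1 library, against 14.4 and 8.21 CPM in control, from 80 counts against 20 and 6 (log2 fold change 2.02, SE 0.374, edgeR's adjusted p = 0.000123). Its monosome level was 112 and 104 CPM in ABCE1 knockdown cells, against 87.0 and 82.0 CPM in control cells, which was not called (edgeR's adjusted p = 0.0698). The difference between disomes and monosomes was 1.68 (SE 0.331, edgeR's adjusted p = 0.00307), and it was lost without the second control disome library (1.43, edgeR's adjusted p = 0.119).

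The transcript that was lower in disomes relative to monosomes was ENST00000357304.8, with 2230 codons. Its disome level was 175 CPM in the ABCE1 library, against 287 and 253 CPM in control. Its monosome level was 104 and 105 CPM in ABCE1 knockdown cells, against 96.2 and 92.7 CPM in control cells. The difference was -0.78 (SE 0.171, edgeR's adjusted p = 0.0182), and the call was lost without any of the 4 monosome libraries or without the first control disome library. ENST00000638390.1, with 326 codons and 5 lines away in the files, is named after its values were seen. It fell in disomes, with 133 CPM in the ABCE1 library against 247 and 208 CPM in control (log2 fold change -0.79, SE 0.197, edgeR's adjusted p = 0.0316). In monosomes it had 27.1 and 29.3 CPM in ABCE1 knockdown cells, against 28.9 and 29.2 CPM in control cells, which were close together.

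The other 4 disome falls, named in full because they are few, were transcripts that also fell in monosomes. ENST00000502586.5 had 33.4 CPM in disomes of the ABCE1 library, against 123 and 115 CPM in control (log2 fold change -1.83, SE 0.265, edgeR's adjusted p = 1.21e-08). ENST00000407418.8 had 52.0 CPM in the ABCE1 library, against 122 and 99.9 CPM in control (log2 fold change -1.11, SE 0.246, edgeR's adjusted p = 0.00468). Without the first control disome library the calls of ENST00000407418.8 (edgeR's adjusted p = 0.227) and of ENST00000638390.1 (edgeR's adjusted p = 0.4) were lost. The 3 neighbouring transcripts ENST00000296577.9, ENST00000507193.5 and ENST00000502586.5 were also the 3 disome falls that DESeq2 called.

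The disome rises were sensitive to the test and to the control library. DESeq2 called 1 rise, of at most 150 codons, where edgeR called 22. Without the first control disome library edgeR called 20 rises, 15 of them of at most 150 codons, and without the second it called 13, 9 of them that short. With no filter on low counts it called 12, 7 of them that short, where 39.4% of the transcripts tested were. The number of rises was thus not stable. Of the 27 calls in disomes, 18 were kept without the first control library and 16 without the second.

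The other arm of the series offered libraries that share none with this comparison. There, cells made tagged eRF1, which reads the stop codon and frees the nascent chain from the ribosome, as wild type (WT) or as a mutant labelled AAQ, and lysates before pulldown (inputs) gave 2 disome libraries each. Of the 22 disome rises after ABCE1 siRNA, 21 could be tested for AAQ over WT, 14 had a positive log2 fold change with a median of 0.17 over the 21, and 4 were called higher. The share of positive values over the transcripts tested there was not computed. Among those transcripts, 4.87% were called higher and 1.03% lower. Among those of at most 150 codons, 8.46% (228 of 2694) were called higher. The 4 were among the 15 short ones.

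These 4 are named because they are few, after their values were seen. ENST00000452906.3, with 108 codons, had 177 CPM in disomes of the ABCE1 library, against 87.2 and 73.9 CPM in control (log2 fold change 1.12), and a log2 fold change of 2.46 in AAQ over WT (SE 0.29, edgeR's adjusted p = 3.24e-15). ENST00000250498.9, with 114 codons, had 260 CPM in the ABCE1 library, against 142 and 152 CPM in control (log2 fold change 0.83), and 2.54 in AAQ over WT (SE 0.306, edgeR's adjusted p = 1.83e-14). The ABCE1 library was the higher one in both. ENST00000535326.1, with 120 codons, had 98.5 CPM in the ABCE1 library, against 51.1 and 45.1 CPM in control (log2 fold change 1.01), and 2.24 in AAQ over WT (SE 0.405, edgeR's adjusted p = 2.11e-06). ENST00000330029.6, with 64 codons, had 308 CPM in the ABCE1 library, against 147 and 174 CPM in control (log2 fold change 0.96), and 1.22 in AAQ over WT (SE 0.304, edgeR's adjusted p = 0.0019). These 4 were picked for their AAQ call, and the AAQ and ABCE1 comparisons differ in cells and depth, so their sizes were not compared.

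Disome and monosome levels of the same transcripts were also set side by side as a description. In control siRNA cells, whose disome counts entered the calls, 16 of the 22 disome rises had less disome than monosome CPM, with a median log2 ratio of -0.95. Of the 12425 transcripts tested in both kinds of footprint, 7100 did, with a median of -0.16. Naive cells of the other arm, which made no tagged protein, gave another picture. Of the 20 disome rises with at least 10 counts in both naive libraries, 13 had more disome than monosome CPM, with a median log2 ratio of 0.22. Of the 8604 transcripts tested in disomes with such counts, 4068 did, with a median of -0.07. The naive values rest on 1 library of each kind. Unlike the control values, they were not normalized for library composition and needed at least 10 counts in each library. The 22 were also called against the control disome libraries, so low values there favoured a call. Control and naive cells differed in the direction of this ratio for the disome rises, and what part the unlike measures and the calling had in this was not tested.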

How the data were processed

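The deposited files hold a whole-number count for each Ensembl transcript ID beside a coding length in codons, and no normalization by the authors is recorded. Per the submitters' processing notes, STAR 2.7.0a, UMI-tools 1.1.1 and hg38 were used. Which counter and annotation were used is not given in the sources used here. The labels do not say whether replicates were separate cultures, so the p-values may reflect technical spread alone. Replicates differed beyond counting noise (chi-square per degree of freedom 1.54 for ABCE1 monosomes, 1.36 for control monosomes and 1.79 for control disomes). Isoforms within 40 lines were joined where their scaled replicate differences correlated above 0.7 once 2 leading components had been taken out (500 counts or more), and the rest where counts were identical. Counts were tested with edgeR 4.0.16 (R 4.3.3; quasi-likelihood F test, TMM, minimum count 10, Benjamini-Hochberg over the transcripts tested) in fits of the 10 monosome, 8 disome or 18 joint libraries of the knockdown arm. DESeq2 1.42.0 was an alternative. The test was checked on simulated data. The rule named at most 2 rises and 2 falls per comparison, the largest at an average log2 CPM of 4 or more whose groups did not overlap. Others were named after their values were seen: the remaining monosome rises and disome falls, the third monosome fall of a neighbourhood, ENST00000407418.8, and transcripts also called in AAQ cells. The comparison, gene lists and rules were chosen with earlier results of these data known.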

Additional observations from a re-analysis of the deposited data

Results flagged for a closer look

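Transcripts whose change after ABCE1 siRNA differed between disomes and monosomes, by edgeR's test of that difference over 18 libraries, are listed here for those named above. ENST00000322028.5 rose by 1.74 more in disomes than in monosomes on the log2 scale. ENST00000587334.1 rose by 1.68 more. ENST00000357304.8 had a difference of -0.78. The disome side of each rests on 1 ABCE1 library.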

How the results depend on the processing

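In monosomes, where 21 transcripts were called, DESeq2 called 11, no filter on low counts gave 37, a fit of the ABCE1 and control libraries alone gave 41, a joining limit of 0.9 gave 36 and no joining of isoforms gave 43. The 21 calls were kept without the filter, in the fit of 4 libraries and at the limit of 0.9. The deviations of same-numbered libraries correlated at 0.05 to 0.43, with 8 of 10 pairs of groups over 0.1. The labels do not say that a number marks a shared batch, and because 2 pairs were below 0.1 the numbers were not taken as pairing, although a factor shared by number was not tested. The 2 pairs were control with the 4EHP knockdown and control with the combined knockdown. The pair compared here, ABCE1 with control, was at 0.16. With the number as a block, 58 transcripts were called, 17 higher and 41 lower, and these included the 21. In disomes, where 27 were called, DESeq2 called 4, no filter gave 15, the limit of 0.9 gave 43 and no joining gave 65. In disomes relative to monosomes, where 23 were called, DESeq2 called 38 and no joining gave 66. DESeq2 gave no adjusted p for 20861 of the 25619 transcripts there, nor for 11020 of the 28419 in monosomes. Its counts in these comparisons are thus over a smaller set than edgeR's. Leaving out a library gave 14 to 23 calls in monosomes, 18 to 29 in disomes and 10 to 53 in disomes relative to monosomes. With the mean of the other 3 knockdowns in place of control, an alternative chosen after the data were seen, 2532 were called in monosomes and 376 in disomes. The difference in the share of disome counts on transcripts over 1200 codons was -0.101 percentage points and was 0.00572 without joining. No value changed from a called rise to a fall or the reverse. Of the values of named transcripts under the alternatives, 166 kept their direction and call and 33 kept their direction and lost the call, and the cause was not tested. Not run were the planned check of ABCE1 itself and the medians of gene lists, which need gene names. The disome tests rest on 1 ABCE1 library and on control libraries of 1477523 and 776771 counts.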
